A study of Mus musculus with 3 samples.

Results

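Prdm16, its paralog Mecom and 8 genes for known partner proteins of PRDM16 (Ctbp1, Ctbp2, Ski, Ehmt1, Ehmt2, Hdac1, Hdac2 and Med1) were described in sorted epithelial cells of mouse back skin. The 10 genes were taken by symbol from a table of 44625 gene entries, and each symbol had 1 entry. RNA was sequenced from 3 libraries of 1 group: wild-type mice of 56 days, in the second telogen (the resting phase of the hair cycle), whose trypsin-released skin cells were sorted as Alpha6+/Sca1-. Alpha6 is an integrin of basal epithelial cells, and Sca1 is a surface antigen carried by cells of the epidermis between follicles and of the follicle's upper part. The series concerns hair follicle stem cells and PRDM16 in sebaceous gland homeostasis, as its title states. The labels speak of biological duplicates while 3 libraries are given, so every SD and test over 3 replicates measures a spread that may be partly technical. In these bulk samples, fewer cells of a type and less RNA per cell cannot be told apart.

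PRDM16 and the MECOM protein (also known as EVI1, or PRDM3) are zinc finger proteins with a PR domain, a relative of the SET domain of histone methyltransferases. PRDM16 is best known for the brown fat fate and for the upkeep of haematopoietic and neural stem cells. It binds DNA or other factors and recruits partners: CtBP proteins for repression, EHMT1 with its histone H3 lysine 9 methyltransferase activity, and the Mediator subunit MED1 for activation. HDAC1 and HDAC2 are histone deacetylases of several corepressor complexes, and SKI is a corepressor of SMAD signalling. H3K27me3 is the repressive mark laid down by Polycomb repressive complexes, and the authors deposited a whole number per gene under that name, whose unit was not stated.

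Totals ran from 29283936 to 39198620 counts per library, and from 13028 to 14125 entries had at least 1 TPM (a transcript's share of its library, corrected for gene length), the level counted here as detected. All 8 hair follicle stem cell markers and all 5 basal markers were detected, while 0 of 4 endothelial and 0 of 4 adipocyte markers were. Among the other cell type lists, 7 of 8 sebaceous, 5 of 5 suprabasal, 2 of 6 fibroblast, 3 of 6 melanocyte and 2 of 5 immune markers were detected on the mean. Of the endothelial, fibroblast and adipocyte lists, Cdh5, Cldn5, Emcn, Lum and Fabp4 had 0 counts in all 3 libraries. Other genes of the same lists had counts in each library. In replicates 1 to 3 Col1a1 had 521, 1938 and 2354, Pecam1 14, 17 and 31, and Adipoq 4, 3 and 8. Replicate 1 stood apart: 59.6% of 13664 detected entries were highest in it.

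The sequence just before the start of Prdm16 is shown first, because Prdm16 was the only one of the 10 genes with an H3K27me3 value. That of Mecom, its paralog, and that of Ctbp1, a partner with a value of 0 and a high level, are set beside it. The RefSeq promoter table (GRCm38.p6) held entries for 9 of the 10 genes, all but Hdac1. Each run is printed 5′ to 3′ on the minus strand of GRCm38, and capitals mark each CpG, the C and G pair whose density defines CpG islands. Those of Prdm16 (chr4:154636874-154637123) and Ctbp1 (chr5:33275005-33275254) hold the 250 bases before the RefSeq start, and that of Mecom (chr3:30509823-30510009) holds the part of its 250 bases that lies in no annotated exon, 187 bases.
Prdm16: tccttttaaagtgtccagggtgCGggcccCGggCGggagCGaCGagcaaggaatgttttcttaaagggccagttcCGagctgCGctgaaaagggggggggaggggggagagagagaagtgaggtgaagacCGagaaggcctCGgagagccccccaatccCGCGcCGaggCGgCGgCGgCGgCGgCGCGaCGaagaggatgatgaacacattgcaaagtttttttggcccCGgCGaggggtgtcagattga
Mecom: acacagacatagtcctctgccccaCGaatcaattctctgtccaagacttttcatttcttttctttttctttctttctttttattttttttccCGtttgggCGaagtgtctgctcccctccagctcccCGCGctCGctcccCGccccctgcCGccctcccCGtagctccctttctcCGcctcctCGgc
Ctbp1: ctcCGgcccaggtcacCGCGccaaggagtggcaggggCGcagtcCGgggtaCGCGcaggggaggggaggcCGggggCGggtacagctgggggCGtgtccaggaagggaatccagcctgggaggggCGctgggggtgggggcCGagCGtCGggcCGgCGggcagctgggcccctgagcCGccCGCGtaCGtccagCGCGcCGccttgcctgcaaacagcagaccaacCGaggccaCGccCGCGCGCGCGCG
The Prdm16 run held 22 CpG, the Ctbp1 run 31 and the Mecom run 11. Over the whole 250 bases the first Mecom start had 14 CpG and its second RefSeq start had 8. The median over 32851 RefSeq windows of that length was 6 CpG, and 85.2% of windows had fewer than Prdm16. Among the other partners the number ran from 2 at the first listed start of Ctbp2 to 53 at the start of Ski. The 2 listed starts of Ctbp2 lie 42494 and 109107 bases from its annotated start. Med1, whose listed start lies 387 bases from the annotated one, had 18 CpG. Partners with an H3K27me3 value of 0 thus had both more and fewer CpG than Prdm16. Across windows matched to the table by symbol, the median was 8 CpG at 19729 windows of entries with a value of 0. It was 11 at 135 windows of entries with a value at least that of Prdm16. The quartiles overlapped widely, from 3 to 19 CpG in the former and from 5 to 18 in the latter. Past the start, the first transcribed bases of Prdm16 and of Mecom at its first RefSeq start shared a run of 24 identical bases. It lay at positions 10 to 33 of Prdm16 and 27 to 50 of Mecom, counted from 1 at the first transcribed base. Of the 32851 RefSeq windows, extended past the start, those 2 were the only ones that held this run on either strand. For the second RefSeq start of Mecom the longest run shared with Prdm16 was 7 bases, which 1890 windows held.

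Prdm16 (ENSMUSG00000039410, GRCm38 chromosome 4, 154316125 to 154636873, minus strand) had a deposited H3K27me3 value of 44173. The other 9 genes had a value of 0. A value above 0 was held by 8.06% of all 44625 entries and by 11.2% of 21426 protein-coding genes, so 1 of 10 is near the background. Among entries with a mean of at least 1 TPM, as 9 of the 10 genes have, the share was 3.29%. What set Prdm16 apart was the size of its value: the median over the 3597 entries above 0 was 7593, and 95 of the 2399 protein-coding genes above 0 had a larger one.

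The value of 44173 was shared by 4 entries whose starts lie next to each other. The other 3 are non-coding: Gm13111, which starts 703 bases upstream of Prdm16 on the opposite strand, Gm27202, 8828 bases upstream, and Gm13110, 18445 bases upstream. All 3 had 0 counts in every library. Beyond them, the gene Actrt2, 30994 bases upstream, had a value of 0. Inside the body of Prdm16, the antisense entry Gm13134 starts 35676 bases downstream of the Prdm16 start and had a value of 14406, and Gm13133 starts 86591 bases downstream and had 16945. Neither had a count. B230104I21Rik, which starts 300746 bases downstream, had a value of 0. The largest value of the locus thus belonged to the entries around the start of Prdm16.

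Across the table, 558 values were shared by several entries of 1 chromosome. In 97.5% of them the starts of the sharing entries spanned no more bases than the value itself, against 27.96% for the spans of whole gene bodies. The 4 entries at Prdm16 spanned 18445 bases from start to start. In this respect the values resemble lengths in bases of stretches around gene starts, but the file states no unit.

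Mecom (ENSMUSG00000027684, chromosome 3, 29951296 to 30548008, minus strand) is annotated from a distant first start and had a value of 0. Of the 7 other entries inside its body, 2 had values and 5 had a value of 0. Gm37652, which starts 44195 bases downstream of the annotated Mecom start, had 32370, and the antisense entry Mecomos, 535629 bases downstream, had 19946. RefSeq gives Mecom a start 38249 bases downstream of the annotated one, which is 5946 bases from the start of Gm37652. It gives another 534804 bases downstream, which is 825 bases from the start of Mecomos. The value of 0 for Mecom is therefore that of the entry in the table, and the starts that RefSeq gives to Mecom lie close to entries with values of 19946 and 32370. Both of these entries had 0 counts in every library.

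**Figure D1:**
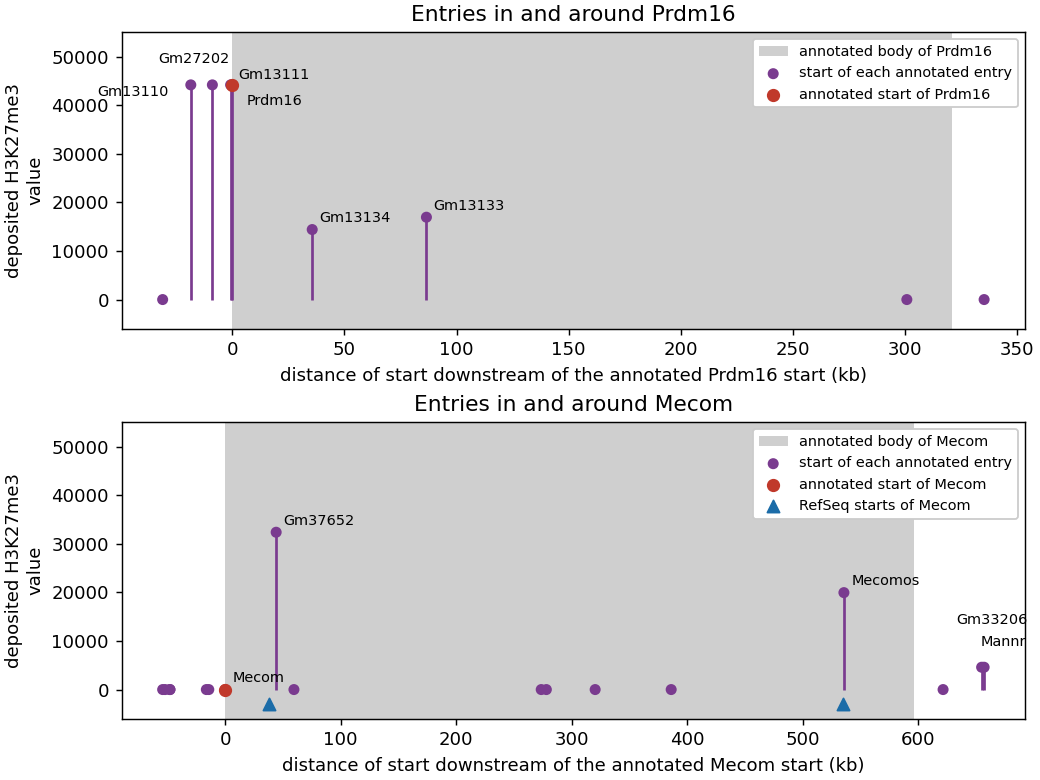
Deposited H3K27me3 value (vertical axis, unit not stated) of each entry in and around Prdm16 (upper panel) and Mecom (lower panel), placed by the distance of its annotated start from the annotated start of the named gene in kilobases; grey marks the gene body and triangles the RefSeq starts of Mecom. The 4 entries at 44173 stand at and just upstream of the Prdm16 start, while the annotated Mecom start is at 0 and the entries near its RefSeq starts are at 32370 and 19946.

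By level the 10 genes fell into 4 bands. Ski, Ctbp1, Hdac1, Ehmt2 and Hdac2 had means from 53.0 to 106 TPM, Ehmt1, Med1 and Ctbp2 from 10.9 to 16.6 TPM, Prdm16 stood at 2.38 TPM, and Mecom was near 0. Detected genes numbered 9 of 10 in each library. TPM is per length, here that of the union of annotated exons, and takes no account of GC content. Comparisons of level between genes are therefore approximate.

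Prdm16 had 2.36, 2.55 and 2.23 TPM in replicates 1, 2 and 3, from 237, 325 and 320 counts (mean 2.38 ± 0.161 TPM, SD, n = 3). The coefficient of variation of its depth-scaled counts was 7.41%, or 12.3% with TMM scaling, where counting alone gives 5.89%. Mecom had 11, 6 and 0 counts, or 0.0821, 0.0353 and 0 TPM, and a count of 0 in replicate 3 allows up to 0.0157 TPM. Prdm16 was above Mecom in 3 of 3 libraries, with a mean log2 ratio of 1.70 ± 0.07 on the TPM + 1 scale (two-sided exact sign-flip permutation p = 0.25, the smallest that 3 libraries allow). At these low levels the pseudocount sets that size: the log2 ratio was 4.19 on the TPM + 0.1 scale, and the mean TPM of Prdm16 was 60.8 times that of Mecom. That fold rests on 17 Mecom counts in all and has no firm size. Over replicates left out in turn the mean of Mecom ranged from 0.0176 to 0.0587 TPM. Gene-level counts do not tell apart transcripts of either gene with and without the PR domain. Annotated exons of Prdm16 overlap another gene, on the opposite strand, over 1.17% of their bases and those of Mecom over 0.652%.

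Among the corepressors, Ctbp1 (chromosome 5, 33247723 to 33274994, minus strand) and Ctbp2 (chromosome 7, 132987563 to 133124354, minus strand) encode close relatives that bind short peptide motifs in DNA-bound repressors. Ctbp1 had 96.4, 97.7 and 99.9 TPM in replicates 1 to 3, a mean of 98.0 ± 1.77 TPM (SD, n = 3). Ctbp2 had 16.3, 8.65 and 7.83 TPM, a mean of 10.9 ± 4.65 TPM, and was highest in replicate 1. The groups of values did not overlap, and the mean log2 ratio of Ctbp1 to Ctbp2 was 3.12 ± 0.55 on the TPM + 1 scale (two-sided exact sign-flip permutation p = 0.25, adjusted 0.25 over 4 pairs). Ctbp1 was thus the main CtBP transcript of these libraries, 8.98 times Ctbp2 by mean TPM. Of the exonic bases of Ctbp2, 5.05% are shared with Fgfr2, and how reads there were assigned is not given in the sources used here. Ski (chromosome 4, 155154075 to 155222592, minus strand) had 81.6, 124 and 113 TPM, a mean of 106 ± 21.96 TPM. It was lowest in replicate 1, the reverse of Ctbp2.

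Of the paired enzymes, EHMT1 and EHMT2 (also known as GLP and G9a) work as a dimer that methylates histone H3 at lysine 9. Ehmt2 (chromosome 17, 34898469 to 34914052, plus strand) had 79.1, 76.1 and 71.4 TPM, a mean of 75.6 ± 3.87 TPM (SD, n = 3). Ehmt1 (chromosome 2, 24789928 to 24919614, minus strand) had 20.9, 16.1 and 12.9 TPM, a mean of 16.6 ± 3.98 TPM. The partners of 1 dimer thus differed 4.54 times in mean TPM, with a log2 ratio of 2.14 ± 0.25 on the TPM + 1 scale and no overlap (two-sided exact sign-flip permutation p = 0.25, adjusted 0.25 over 4 pairs). Hdac1 (chromosome 4, 129516104 to 129542713, minus strand) had 95.0, 87.6 and 86.2 TPM, and Hdac2 (chromosome 10, 36974544 to 37001889, plus strand) had 64.6, 46.8 and 47.5 TPM. Their means were 89.6 ± 4.70 and 53.0 ± 10.0 TPM. Hdac1 was the higher in 3 of 3 libraries, by a log2 ratio of 0.76 ± 0.19 on the TPM + 1 scale (two-sided exact sign-flip permutation p = 0.25, adjusted 0.25 over 4 pairs), the smallest gap of the 4 paralog pairs. Med1 (chromosome 11, 98152154 to 98193293, minus strand), which links Mediator to nuclear receptors, had 16.2, 10.5 and 8.47 TPM, a mean of 11.7 ± 4.00 TPM.

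In the order of mean TPM, Ski, Ctbp1, Hdac1, Ehmt2, Hdac2, Ehmt1, Med1, Ctbp2, Prdm16 and Mecom followed each other. In 6 of the 9 neighbouring pairs the values did not overlap. Those that overlapped were Ski with Ctbp1 (mean log2 ratio 0.09 ± 0.30 on the TPM + 1 scale, two-sided exact sign-flip permutation p = 0.75), Ehmt1 with Med1 (0.49 ± 0.13, p = 0.25) and Med1 with Ctbp2 (0.12 ± 0.13, p = 0.5). The order of Ski and Ctbp1 turned to -0.030 without replicate 2, so their places are not separated. No pair could pass a threshold of 0.05 with 3 libraries, and the adjusted p over 9 pairs ran from 0.321 to 0.75.

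**Figure D2:**
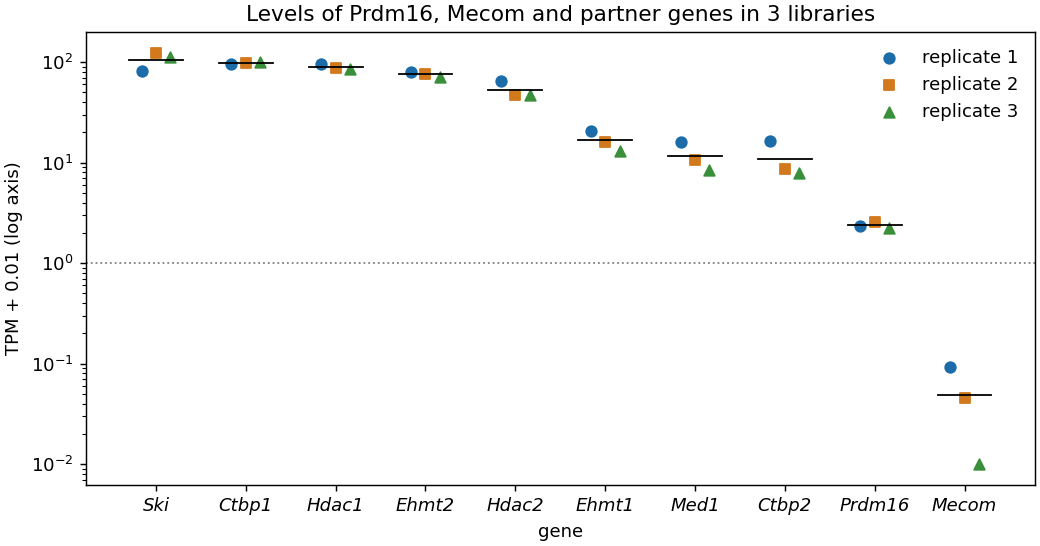
TPM plus 0.01 (log axis) of the 10 genes in each of the 3 libraries, ordered by mean; symbols are libraries, black lines the means and the dotted line 1 TPM. Prdm16 lies at 2.23 to 2.55 TPM in all 3 libraries, below every partner gene and above Mecom, which has 0 TPM in replicate 3.

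Between libraries, 6 of the 9 detected genes were highest in replicate 1, near the 59.6% over all detected entries. The log2 level of replicate 1 against the mean of the others (TPM + 1 scale) was 0.90 for Ctbp2, 0.72 for Med1, 0.50 for Ehmt1 and 0.44 for Hdac2, and it was -0.53 for Ski. For Prdm16 it was -0.01 and for Ctbp1 -0.04. Over 13485 detected genes with an adjusted p in the authors' deposited table and a known GC content, the same log2 level moved with GC content, from a median of 0.67 in the lowest of 10 equal GC bins to -0.04 in the highest. Relative to the median of its own GC bin, Hdac2 stood at -0.04, Ctbp2 at 0.87, Med1 at 0.38 and Ski at -0.57. Summed marker levels also differed and were lowest in replicate 1 for 6 of 9 lists. In replicates 1 to 3 the 5 suprabasal markers summed to 1648, 3144 and 5017 TPM, although Ivl among them had 28.4, 15.7 and 24.5 TPM. The 6 fibroblast markers summed to 17.99, 45.3 and 40.4 TPM and the 8 sebaceous ones to 220, 255 and 314 TPM. Basal markers summed to 19693, 28990 and 25677 TPM and stem cell markers to 21278, 27593 and 26106 TPM, and the 5 immune markers to 10.8, 19.9 and 12.5 TPM. The part of GC content and of these cells in the differences between libraries was not tested.

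Where Prdm16 stands among genes with as large a value was examined next. Of the 245 entries with an H3K27me3 value of at least 44173, 24 had a mean of at least 1 TPM, and 9.25% ± 0.623 were detected per library (SD, n = 3). Among the 96 protein-coding ones the share was 18.4% ± 1.20, against 17.1% ± 0.838 of 2303 protein-coding genes with a smaller value and 59.2% ± 1.06 of 19027 with a value of 0. Prdm16 was thus 1 of 19 protein-coding genes with a value this large and a mean of at least 1 TPM. Taken as 1 entry for each value and chromosome, 15.6% of 75 were detected, and at a limit of 5 TPM, which Prdm16 does not reach, 4.90% of the 245 were.

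The entries nearest to Prdm16 in level over the 3 libraries, by Euclidean distance of log2(TPM + 1) among those 245, were Hoxc9, Cux1, Hoxd9, Tbx3 and Hoxd3os1. Hoxc9 and Hoxd9 encode homeodomain factors of posterior body position, Tbx3 a T-box repressor and Cux1 a homeodomain factor with cut repeats. Hoxc9 (chromosome 15, 102976439 to 102985099) had 2.44, 2.16 and 1.92 TPM and a value of 54964. Cux1 (chromosome 5, 136248135 to 136567490) had 2.15, 2.45 and 2.97 TPM and a value of 277425. Tbx3 (chromosome 5, 119670669 to 119684724) had 2.27, 3.18 and 3.06 TPM and a value of 61675. Hoxd9 and Hoxd3os1 lie next to each other on chromosome 2 and shared a value of 140992, with means of 2.10 ± 0.305 and 2.37 ± 1.13 TPM (SD, n = 3). The likeness rests on level alone, over 3 libraries of 1 group.

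Among the 15 genes of the Prdm family, counting Mecom, 7 had an H3K27me3 value above 0 and 2 of these 7 were detected. These were Prdm16 and Prdm1, the gene of the repressor BLIMP1, which had a value of 2846 and 13.4, 9.30 and 7.77 TPM. Prdm8 had a value of 40114, close to that of Prdm16, and 0, 0 and 5 counts. Prdm6 with 39460, Prdm13 with 27314 and Prdm12 with 23474 had 0 counts in all 3 libraries, and Prdm14 with 14094 had 2, 1 and 0. Of the 8 family genes with a value of 0, 7 were detected, all but Mecom. The largest value of the family therefore belonged to a detected gene, while the next 4 belonged to genes with at most 5 counts in a library.

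**Figure D3:**
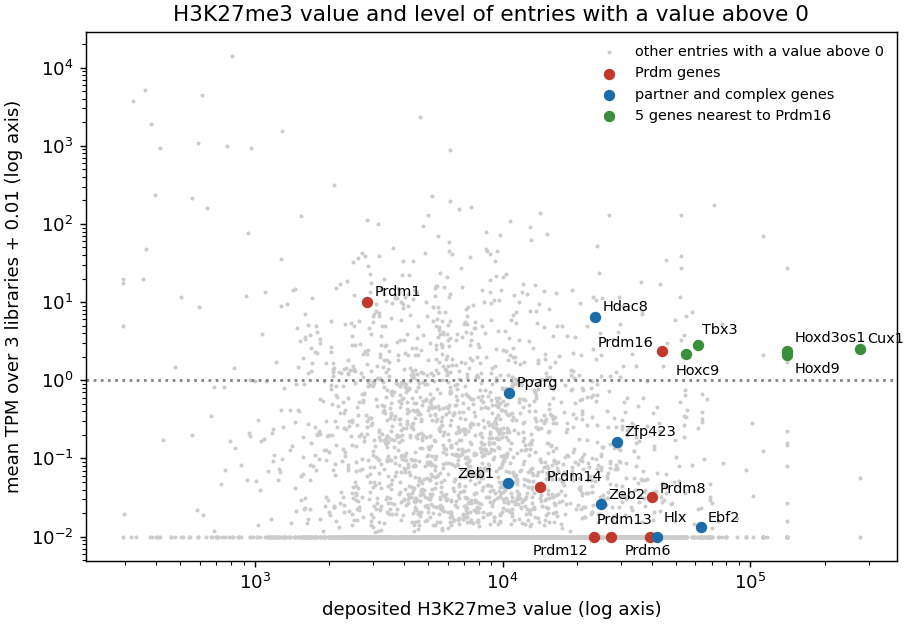
Mean TPM over 3 libraries plus 0.01 against the deposited H3K27me3 value, both on log axes, for each entry with a value above 0; the dotted line is 1 TPM. Prdm16 and the 5 entries nearest to it lie above the line at large values, whereas Prdm6, Prdm8, Prdm12 and Prdm13 lie at or near 0 TPM.

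Other factors that bind PRDM16 or act with it in fat cells were read beside it, 4 of 11 of them with an H3K27me3 value above 0. Cebpa and Cebpb, genes of C/EBP factors, had means of 68.5 ± 20.5 and 52.1 ± 15.1 TPM and a value of 0. Ebf2, Hlx and Zfp423 had values of 62981, 41831 and 28913 and were at most at 0.208 TPM in any library. Low levels also occurred at a value of 0: Ppargc1b, Ppara and Ppargc1a, genes of a nuclear receptor and of PGC-1 coactivators, had means of 3.93, 1.54 and 1.06 TPM. Pparg, the nuclear receptor of fat cells and sebocytes and also on the sebaceous list, had a value of 10603 and 1.29, 0.420 and 0.329 TPM. Appbp2 and Cul2, parts of the ubiquitin ligase that acts on PRDM16 protein, had 21.5 ± 3.32 and 20.8 ± 4.21 TPM. Of the 8 genes of the brown fat programme, 3 had a mean of at least 1 TPM, with Cox7a1 highest at 6.24, 0.956 and 0.121 TPM, a mean that rests on replicate 1. Elovl3, with a value of 24920, had 1.24, 0.978 and 1.13 TPM, and Cidea, with a value of 6153, had 1.99, 0.941 and 0.891 TPM. Without replicate 1 the count fell from 3 to 1, which was Elovl3. Ucp1, the uncoupling protein that defines brown fat, had 0 counts in each library, so a level of up to 0.170 TPM in replicate 1 is possible. Of the 6 brown fat genes with an adjusted p in the authors' deposited table, 0 were higher and 2 lower, against 23.6% higher and 32.0% lower over all genes. These were Dio2, with a log2 fold change of -2.31 in the authors' deposited table, and Cox8b, which had 0 counts in each library, so that its fold change has no exact size.

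The authors' comparison was then read for the 10 genes. From headers of columns not used here it was taken to set these libraries against bulge libraries, with positive values for higher levels in the Alpha6+/Sca1- libraries. Of the 10 genes, 9 had an adjusted p in the authors' deposited table, and under 0.05 there were 2 higher and 2 lower ones. Over all 20274 genes with an adjusted p, 23.6% were higher and 32.0% lower, so the members' counts are near the background in both directions. Among the 13506 of these genes with a mean of at least 1 TPM, 35.1% were higher and 25.6% lower. Ctbp1 was higher, with a log2 fold change of 2.50 and an adjusted p of 6.55e-29 in the authors' deposited table, and Ehmt2 was higher, with 2.33 and 3.19e-22. Med1 was lower, with a log2 fold change of -2.48 and an adjusted p of 1.14e-30 in the authors' deposited table, and Ehmt1 was lower, with -1.004 and 8.51e-06. The partners of the EHMT dimer thus lay on opposite sides of the authors' comparison. Markers of some other cells moved in it as well. Suprabasal markers were higher in 5 of 5 cases in the authors' deposited table, with a median log2 fold change of 3.17. Sebaceous ones were higher in 4 of 8, with a median of 1.10. Among melanocyte markers with an adjusted p, 1 of 6 was higher and 0 lower. Among fibroblast ones, 0 of 5 were higher and 1 lower. Called in either direction were 0 of 4 immune, 0 of 2 adipocyte and 0 of 1 endothelial markers. Basal and stem cell markers moved too. The former had 3 higher and 1 lower of 5, and the latter 3 higher and 3 lower of 8. The part of other cells in the members' values was not tested.

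The remaining genes did not pass. Prdm16 had, in the authors' deposited table, a log2 fold change of 0.52 (adjusted p 0.242), Hdac2 0.17 (0.424), Hdac1 0.02 (0.943), Ski -0.15 (0.652) and Ctbp2 -0.34 (0.298). Mecom had a log2 fold change of 0.96 and no adjusted p in the authors' deposited table. The deposited table gives no error for these fold changes, so the size of a difference that could have been missed is not known. The median over the 9 genes was 0.02, against -0.36 over all genes with an adjusted p in the authors' deposited table. The authors' score was the product of the log2 fold change, the negative log10 of its adjusted p and the H3K27me3 value plus 1, so for the 8 other genes with an adjusted p it rested on expression alone. Prdm16, with no call, ranked 166 by score in the authors' deposited table, ahead of Ctbp1 at 785 and Ehmt2 at 976.

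The deposited fold change moved with GC content, taken from the longest GENCODE M21 transcript of each gene. Across 20216 genes in the authors' deposited table Spearman's rho of the 2 was 0.450, and genes are not independent, so no p is given. The median log2 fold change in the authors' deposited table was -1.68 in the lowest of 10 equal GC bins and 1.31 in the highest. Prdm16, with 53.3% GC, lay 0.06 above the median of its bin. Ctbp1 and Ehmt2, with 56.2% and 60.8% GC, lay 1.57 and 1.03 above the medians of theirs. Med1 and Ehmt1, with 46.7% and 51.2% GC, lay 1.67 and 1.04 below, so the 4 called genes kept their direction on this scale. Hdac2, with 41.9% GC, lay 1.42 above the median of its bin, and Ski and Ctbp2 lay 1.09 and 1.27 below theirs. Medians by gene length ran from -2.44 in the shortest of 10 bins to 0.40 in the third and -1.10 in the longest in the authors' deposited table. The part of GC content and length in the authors' comparison was not tested.

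**Figure D4:**
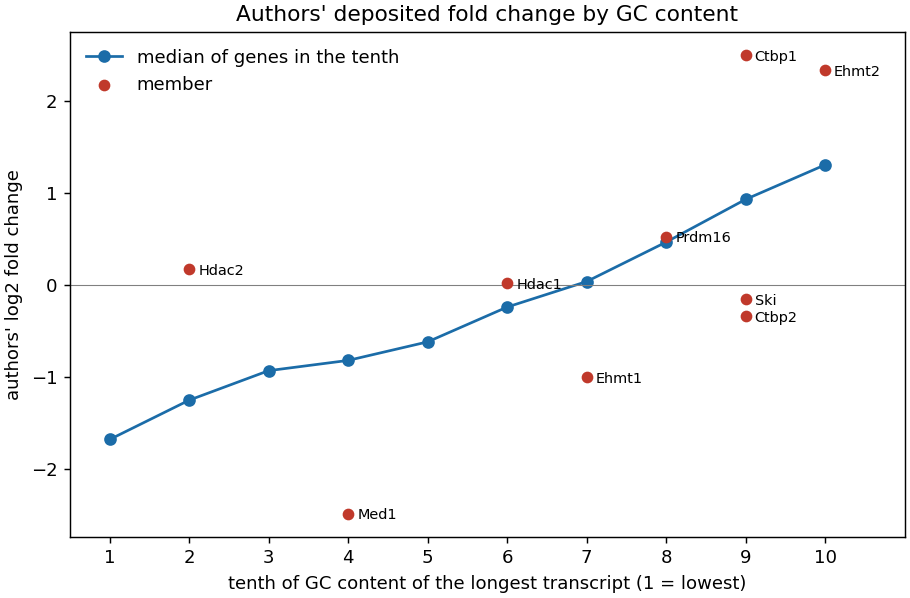
Log2 fold change in the authors' deposited table (vertical axis) against the GC bin of the longest transcript, from 1 (lowest) to 10 (highest); the line joins the medians of all genes in each bin and red points are the 9 members with an adjusted p. The medians climb from -1.68 to 1.31, Prdm16 lies 0.06 above the line, Ctbp1 and Ehmt2 lie above it and Med1 and Ehmt1 below.

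The complexes in which these partners work were read next as lists, whose counts are given beside the 23.6% higher and 32.0% lower over all genes. Among genes with a mean of at least 1 TPM the shares were 35.1% higher and 25.6% lower. Nearly all genes of the H3 lysine 9, HDAC, Mediator and SMAD lists reach that level. Around CtBP, 10 of 12 other genes had a mean of at least 1 TPM, led by Rcor1 with 35.4 ± 8.98 TPM and the demethylase gene Kdm1a with 35.03 ± 10.9 TPM, a pair whose proteins form the CoREST complex. Of the 12, 1 was higher in the authors' deposited table, Wiz with a log2 fold change of 0.97, and 6 were lower, down to -4.00 for Zfp644. WIZ and ZFP644 are zinc finger partners of the EHMT dimer. Zeb1 and Zeb2, repressors of epithelial genes that recruit CtBP, had values of 10550 and 25007 and at most 10 counts in a library.

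Of the 13 other genes of H3 lysine 9 methylation, which hold methyltransferases, demethylases and HP1 readers, all had a mean of at least 1 TPM and none had an H3K27me3 value. Of these, 3 of 13 were higher and 6 lower in the authors' deposited table, from 2.19 for the demethylase gene Kdm4a to -2.73 for Atf7ip, a partner of SETDB1. Cbx1, an HP1 gene, was the highest with 37.9 ± 14.4 TPM. The other methyltransferase genes lay below Ehmt2, with means from 2.68 TPM for Suv39h2 to 20.5 TPM for Setdb1.

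The 20 other genes of HDAC1 and HDAC2 complexes were all detected, and Mta2 and Mbd3 of the NuRD remodelling complex were the highest with 165 ± 12.7 and 155 ± 11.2 TPM. Of these, 10 of 20 were higher and 3 lower in the authors' deposited table, from 3.82 for Mbd3 to -3.07 for Gatad2b, both NuRD subunits. The scaffold genes Sin3b and Sin3a were also called in opposite directions in the authors' deposited table, with 1.17 and -1.74. Hdac8 was the only gene of this list with an H3K27me3 value, 23626, and had 7.15, 5.46 and 6.86 TPM.

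Of 31 other Mediator genes, 30 had a mean of at least 1 TPM, and Med10 had 0 counts in each library, where up to 0.323 TPM could go uncounted in replicate 1. With an adjusted p in the authors' deposited table were 30, of which 12 were higher and 7 lower, from 2.71 for Med30, which was also the highest by level with 78.0 ± 14.7 TPM, to -3.22 for Med13. Med13, Med13l, Med12, Cdk8, Cdk19 and Ccnc, genes of the kinase module that docks reversibly on Mediator, were each lower in the authors' deposited table, from -0.72 to -3.22. Med14, the backbone subunit, was the only other lower one, with -2.22 in the authors' deposited table. The kinase module was singled out after its values were seen. Cdk8 and Cdk19, with -1.27 and -0.83 in the authors' deposited table, lay close to the medians of their GC bins, -1.25 and -0.82. Ccnc, with -1.29, lay above the median of its bin, -1.68. Med13 lay below that same median, and Med13l and Med12, with -1.39 and -0.72, lay below theirs, 0.04.

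Among 9 genes of SKI and SMAD signalling, all were detected and Smad4, the shared SMAD, was highest with 50.7 ± 5.16 TPM. As higher the authors' deposited table called 2, the inhibitory Smad6 with 1.80 and Smad7 with 1.35, and as lower 5, down to -1.63 for Skil, the paralog of Ski. Skil stood at 11.3 ± 2.96 TPM, below the 106 TPM of Ski. Of the 11 other partners and regulators of PRDM16, 3 of 9 with an adjusted p were higher and 2 lower in the authors' deposited table. Cebpb had 5.24, Pparg 3.12 and Cebpa 2.96, while Ppargc1a, the coactivator PGC-1 alpha, had -3.02 and Appbp2 -1.73 in the authors' deposited table. Of the 13 other Prdm genes, 0 of 9 with an adjusted p were higher and 6 lower in the authors' deposited table, among them Prdm2, the highest of them by level with 22.5 ± 3.23 TPM, with -1.27.

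Over the members and these lists together, 117 of 127 genes had an adjusted p, and 28.2% were higher and 33.3% lower in the authors' deposited table. The 33 higher ones had a median GC content of 54.8% and the 39 lower ones 46.2%, with 49.97% over all 117. The median gene length was 4026 bases for the higher and 7817 bases for the lower ones.

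**Figure D5:**
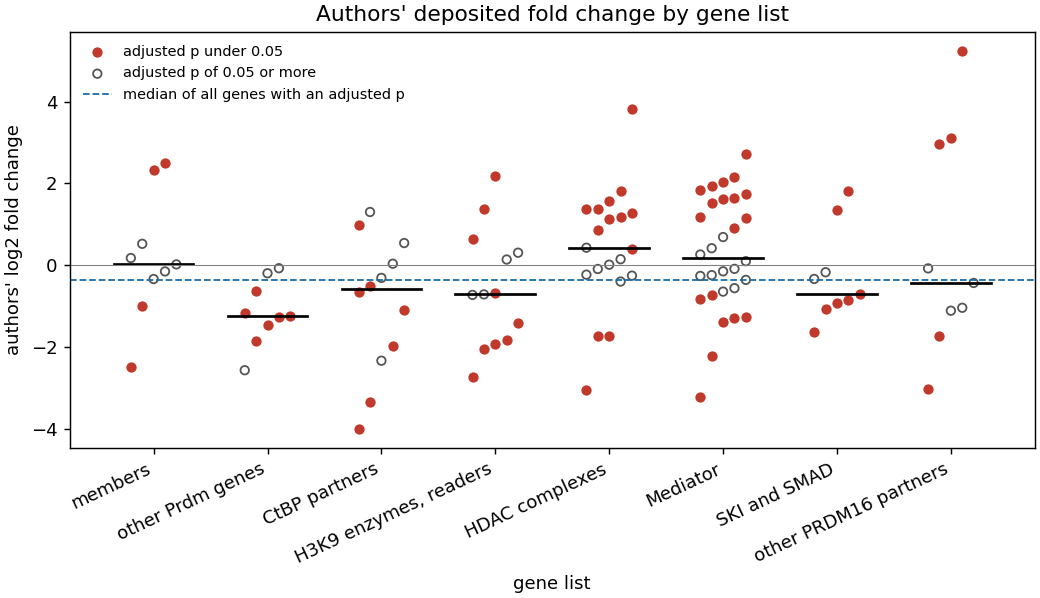
Log2 fold change in the authors' deposited table for each gene with an adjusted p, by list; filled points have an adjusted p under 0.05, black lines are list medians and the dashed line is the median over all genes, -0.36. The HDAC complex and Mediator lists hold calls in both directions, and no Prdm gene outside the members is above 0.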

How the data were processed

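Polyadenylated RNA of 3 libraries was measured, and all values came from 1 table. The authors deposited whole-number counts per gene and TPM values, per the file headers. The log2 fold change and its adjusted p-value were deposited by the authors, as was a score. The submitters' processing notes name FastQC, SAMtools, TopHat2, DESeq2 and DESeq and the builds mm10 and GRCm38, with no roles. The counter, the strand setting and the H3K27me3 source are not given in the sources used here. Another 6 columns of per-sample values match no sample and were not used.

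TPM recomputed from counts and gene length differed by at most 4.72e-06, and the deposited length equalled the exon union of GENCODE M21 for 10 of 10 genes. Coordinates are those of GENCODE M21 (GRCm38), in which 44392 identifiers were found. Levels were compared on log2(TPM + 1), which understates low genes, by two-sided exact sign-flip tests with Benjamini-Hochberg adjustment, checked on simulated data. A floor of 3 counts was used for counts of 0, and floors cover counting error only. TMM factors came from edgeR 4.0.16 (R 4.3.3), other steps from Python 3.11.15 with pandas 2.3.3. Alternatives were a pseudocount of 0.1, other scalings, limits of 5 TPM and of an adjusted p of 0.01, and each replicate left out. Genes named beside the members were the highest by TPM and the most changed called genes of each list, and those under 1 TPM or with an H3K27me3 value. Genes outside this rule, such as Kdm1a, Sin3a, Sin3b and the Mediator kinase module, were chosen after their values were seen. The members and lists were chosen with earlier results of these data known.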

Additional observations from a re-analysis of the deposited data

How the results depend on the processing

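Over 73 results and 174 values under an alternative, 1 value reversed. The mean log2 ratio of Ski to Ctbp1 reversed from 0.09 to -0.030 without replicate 2, in a range up to 0.26 over replicates left out in turn. The detected share of entries with a value at least that of Prdm16 was 9.25%, and it moved to 4.90% at a limit of 5 TPM and to 15.6% with 1 entry per value and chromosome. The log2 ratio of Prdm16 to Mecom went from 1.70 to 4.19 with a pseudocount of 0.1 and to 3.02 without division by gene length. Without that division the ratio of Hdac1 to Hdac2 went from 0.76 to 0.39. That of Ctbp1 to Ctbp2 went from 3.12 to 2.72, and that of Ehmt2 to Ehmt1 from 2.14 to 1.63. The mean of Mecom ranged from 0.0176 to 0.0587 TPM over replicates left out in turn. The other Prdm genes called lower went from 6 to 4 at an adjusted p under 0.01. The brown fat genes called lower went from 2 to 1 at an adjusted p under 0.01. The share of all entries with an H3K27me3 value was 8.06% and fell to 3.29% among those with a mean of at least 1 TPM. With TMM scaling the coefficient of variation of Prdm16 was 12.3% in place of 7.41%, and that of Ctbp1 11.5% in place of 5.17%, so how closely the libraries agree on these genes depends on the scaling. Setting the authors' fold changes against the median of their GC bin was chosen after seeing the data, as was counting detected genes of each list without each replicate, which moved only the brown fat count by over 1.5 times, from 3 to 1. Depth limits Mecom, with 11, 6 and 0 counts. No paired analysis was possible because the samples form 1 group.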

Other observations

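Within 400000 bases of Prdm16 on chromosome 4, well expressed genes lay close to silent ones. Megf6, a neighbour on the side of the 3′ end of Prdm16, had an H3K27me3 value of 6681 and 155 ± 24.6 TPM (SD, n = 3), and Trp73, the gene of the p63 relative p73, had a value of 8601 and 47.7 ± 12.3 TPM. Both are protein-coding entries with a value above 0 that stood far above Prdm16 in TPM. On the other side, Actrt2 had 0 counts and Ttc34, with a value of 6589, had 1, 0 and 0. Plch2 had a value of 0 and 239, 115 and 99.4 TPM, highest in replicate 1.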
